A study of Mus musculus with 3 samples.

Results

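The 3p arms of 6 mouse let-7 hairpins were followed in small-RNA libraries of melanoma cells and of exosomes. They are let-7a-1-3p, let-7b-3p, let-7c-2-3p, let-7d-3p, let-7g-3p and let-7i-3p, 6 of the 1915 mature miRNA entries in the deposited files, and they were taken by name. They were selected on their read counts in these same libraries, so their counts, shares and ratios are given as a description. Exosomes are small vesicles that cells shed into their medium, and here they were pelleted by ultracentrifugation. The libraries came from B16 cells (a mouse melanoma line labelled C57BL/6J), from the exosomes that these cells release, and from JB6 exosomes, whose source is the JB6 line (mouse epidermal, labelled normal and BALB/c), all with skin as the labelled tissue and with no treatment or genotype named in the labels. With 1 library a group, nothing could be checked between replicates or tested across libraries, and every interval below is a 95% interval for counting error only. Cell line, strain and disease state cannot be told apart between the exosome libraries, and cell RNA from JB6 was not analysed here.

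The libraries held 7925726 miRNA reads in B16 cells, 45677 in their exosomes and 4495956 in JB6 exosomes. The smallest count above 0 was 10 in each file, so a listed 0 means at most 9 reads. In RPM (reads per 1000000 miRNA reads) this bound is 1.14 in B16 cells, 197 RPM in their exosomes and 2.002 RPM in JB6 exosomes. Both melanocyte markers on the list used (miR-211-5p and miR-204-5p) were listed in B16 cells, at 0.267% of miRNA reads together, with 1 of them in B16 exosomes, at 0.182%, and 1 in JB6 exosomes, at 0.000311%. Of 3 leukocyte markers 1 was listed in B16 cells and 2 in JB6 exosomes, at 0.000126% and 0.00127% of reads. Of 6 epithelial markers 4 were listed in B16 cells, at 0.00249% of reads, none in B16 exosomes and 2 in JB6 exosomes, at 0.000778%. In JB6 exosomes miR-200a-3p, miR-200c-3p, miR-141-3p and miR-205-5p were listed at 0. In the same library miR-122-5p, a liver miRNA, made up 25.1% of reads, 3 of 3 red-cell markers 0.748% and 3 of 3 muscle markers 0.371%, against 0.00531%, 0.00209% and 0.000139% in B16 cells. In B16 exosomes miR-122-5p made up 0.0525% of reads, on 24 reads, and the red-cell and muscle markers were listed at 0. The liver, red-cell and muscle marker reads lie in the same library as every JB6 value below, and their part in those values was not tested.

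A let-7 hairpin is cut by Drosha and then by Dicer into a short duplex, and usually the 5p strand is loaded into an Argonaute protein as the guide while the 3p strand, the passenger, is discarded. The let-7 guides share a seed, the bases that pair with target messages, and they repress growth-promoting genes such as Ras and Hmga2. A strand that begins with U or A, and whose 5′ end is the less stably paired end of the duplex, tends to be kept. When another tissue or cell keeps the other strand of a hairpin, this is called arm switching, and it exchanges the seed and with it the set of possible targets.

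The sequences show that the 3p arms, unlike the guides, do not share a seed. All 21 let-7 family entries described here matched a RefSeq mature sequence (build GRCm38.p6). The 6 arms are printed 5′ to 3′ with the seed, bases 2 to 8, in capitals:
let-7a-1-3p: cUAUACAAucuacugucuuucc
let-7c-2-3p: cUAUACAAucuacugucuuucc
let-7b-3p: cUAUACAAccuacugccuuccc
let-7d-3p: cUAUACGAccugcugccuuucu
let-7i-3p: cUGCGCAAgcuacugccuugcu
let-7g-3p: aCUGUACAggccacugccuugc
For comparison, the guide of the let-7d hairpin and that of let-7a are given in the same way:
let-7d-5p: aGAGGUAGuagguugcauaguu
let-7a-5p: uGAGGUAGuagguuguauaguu

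The arms let-7c-2-3p and let-7a-1-3p are the same 22 bases, so reads cannot be assigned to either hairpin, and their listed counts are identical in each library. Counted from 1 at the 5′ end, let-7d-3p differs from let-7a-1-3p at 5 positions (A7G, U9C, A12G, U16C and C22U), of which A7G lies in the seed. Its seed UAUACGA occurs in 1 of the 1679 mature sequences of the RefSeq table, its own, and the nearest other mature sequence, let-7b-3p, is 4 edits away. The seed UAUACAA, by contrast, is shared by 5 entries, which are let-7a-1-3p, let-7b-3p, let-7c-2-3p, let-7f-1-3p and miR-98-3p. Of the 12 let-7 family 3p arms 11 begin with C and 1, let-7g-3p, with A. Of the 9 guides 8 begin with U and 1 with A, the let-7d guide, which differs from let-7a-5p by U1A and U16C.

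Mirlet7d lies at chr13:48536012-48536114 on the minus strand, in an exon of the long non-coding RNA 6720427I07Rik, and Mirlet7a-1 (chr13:48538179-48538272) lies in an exon of the same RNA. The sequence of let-7d-3p was found letter for letter in 2 annotated genes, Mirlet7d and that host. The hairpin is shown because both of its arms carry the main result. Its arms, in capitals, take bases 16 to 37 (5p) and 70 to 91 (3p):
let-7d hairpin: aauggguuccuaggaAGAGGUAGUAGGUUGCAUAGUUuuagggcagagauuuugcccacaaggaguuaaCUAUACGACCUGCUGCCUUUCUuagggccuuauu
Mirlet7c-2 (chr15:85706603-85706697) and Mirlet7b (chr15:85707319-85707403) lie in exons of Lncppara, Mirlet7g (chr9:106178840-106178927) in an intron of the protein-coding gene Wdr82, and Mirlet7i (chr10:122985640-122985724) in an exon of the transcribed pseudogene D630033A02Rik.

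The let-7d hairpin was read mostly from its 5p arm in both B16 libraries and almost only from its 3p arm in JB6 exosomes. B16 cells held 43872 reads of let-7d-5p and 4639 of let-7d-3p. B16 exosomes held 98 and 28, and JB6 exosomes held 1033 and 55565. The 3p arm thus made up 9.56% of the hairpin's reads in B16 cells (exact Clopper-Pearson interval 9.30 to 9.83), 22.2% in their exosomes (15.3 to 30.5) and 98.2% in JB6 exosomes (98.1 to 98.3). The intervals of the 3 libraries do not overlap, and the dominant arm, meaning the arm whose share is above 50% with the whole interval, was 5p in both B16 libraries and 3p in the JB6 library. A share within a hairpin needs no scaling between libraries.

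Between libraries the arm balance is given as the odds ratio of 3p to 5p reads. It was 509-fold higher in JB6 exosomes than in B16 cells (interval 475 to 545), 188-fold higher in JB6 than in B16 exosomes (123 to 288), and 2.70-fold higher in B16 exosomes than in B16 cells (1.77 to 4.12). At the arm ratio of B16 cells, the 1033 guide reads of JB6 exosomes would have come with 109 reads of let-7d-3p in place of 55565. The 98 guide reads of B16 exosomes would have come with 10.4 in place of 28. Both departures are measured against the same B16 cell library, so they are not independent, and the second rests on few reads.

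Between JB6 exosomes and B16 cells, where the dominant arm was exchanged, the levels of both arms differed. let-7d-3p stood at 585 RPM of miRNA reads in B16 cells (569 to 602), 613 in their exosomes (407 to 886) and 12359 in JB6 exosomes (12257 to 12461). Its rank among all miRNAs was 104 in both B16 libraries and 14 in JB6 exosomes. let-7d-5p, the guide with the usual let-7 seed, stood at 5535 RPM in B16 cells (5484 to 5587), 2145 in their exosomes (1742 to 2614) and 230 in JB6 exosomes (216 to 244), at ranks 28, 51 and 93. In shares of miRNA reads the passenger was 21.1-fold higher in JB6 exosomes than in B16 cells (20.5 to 21.8) and the guide 24.1-fold lower (22.6 to 25.6). At least 2-fold lower levels were common in that comparison, with 60.7% of 501 miRNAs and 8 of the 9 let-7 guides, while 26.1% of miRNAs were higher. Between the exosome libraries the direction of the guide difference changed with the scaling, as given below. Both arms together took 0.612% of miRNA reads in B16 cells, 0.276% in their exosomes and 1.26% in JB6 exosomes.

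**Figure D1:**
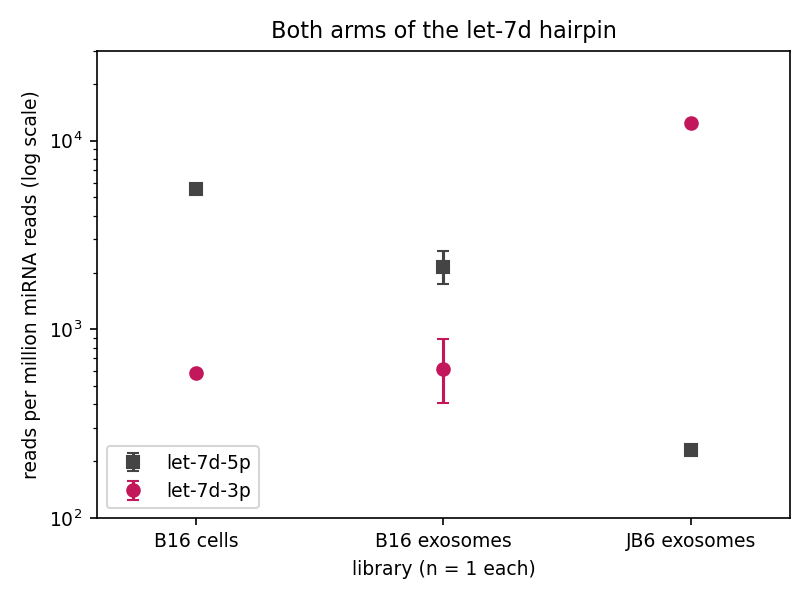
Levels of let-7d-5p (squares) and let-7d-3p (circles) in the 3 libraries, in RPM of miRNA reads on a log axis, with 95% counting intervals and 1 library per point. The 3p arm lies at 585 and 613 in the B16 libraries and at 12359 in JB6 exosomes, while the 5p arm runs from 5535 to 230.

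In B16 exosomes against B16 cells, the level of let-7d-3p was close to that of the cells and the guide was lower. The ratio of shares was 1.05 for let-7d-3p (0.695 to 1.52) and the guide was 2.58-fold lower (2.12 to 3.18). A miRNA was called higher or lower at a 2-fold ratio with an interval that excludes 1, among those with at least 30 reads in the pair together. By this rule 8.53% of 422 miRNAs were higher and 7.82% lower, and 63.3% were not resolved because of a listed 0. Of the 6 let-7 3p arms none was higher, 2 were lower (let-7c-2-3p and let-7a-1-3p, a single sequence), let-7d-3p was neither, and 3 were not resolved. The level of let-7d-3p in B16 exosomes depended on the scaling, with a ratio of 0.517 under TMM factors and 0.0621 under the authors' totals. Under the authors' totals 4 of the 6 arms were lower, beside 257 of all 422 miRNAs.

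The other 5 arms stayed minor partners of their guides in each library. The shared sequence of let-7c-2-3p and let-7a-1-3p had 7604 reads in B16 cells, a listed 0 in their exosomes and 191 reads in JB6 exosomes. Beside let-7a-5p, with 151598, 557 and 11493 reads, that is a 3p share of 4.78% (4.67 to 4.88), at most 1.59%, and 1.63% (1.41 to 1.88). Beside let-7c-5p, with 370365, 2299 and 34543 reads, it is 2.01% (1.97 to 2.06), at most 0.390%, and 0.550% (0.475 to 0.633). Because the passenger sequence comes from both hairpins, it was also set once against the sum of both guides. This gave 1.44% in B16 cells (1.40 to 1.47), at most 0.314% in their exosomes and 0.413% in JB6 exosomes (0.357 to 0.476). The guide reads are shared too, let-7a-5p with let-7a-2 and let-7c-5p with let-7c-1. These shares, and the odds ratios built on the same reads, are thus not the balance of let-7a-1 or let-7c-2 alone. let-7a-1-3p was the most frequent let-7 passenger of B16 cells, at 959 RPM (938 to 981), above let-7d-3p, and its share was lower in both exosome libraries. At the arm ratio of the cells, the 2856 guide reads of let-7a and let-7c in B16 exosomes would have come with 41.6 passenger reads, so the listed 0 makes the odds at least 4.62-fold lower, a bound at 9 reads that leaves out counting error.

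let-7b-3p had 1025 reads in B16 cells, a listed 0 in their exosomes and 317 reads in JB6 exosomes, beside 92385, 476 and 58471 reads of let-7b-5p. Its share was 1.10% (1.03 to 1.17), at most 1.86%, and 0.539% (0.482 to 0.602). let-7b-5p was the most frequent let-7 guide of JB6 exosomes, at 13005 RPM, just above let-7d-3p. The passenger of let-7b thus stayed far below its guide in the library in which let-7d-3p reached almost the same level as that guide.

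let-7g and let-7i, whose guides were among the most abundant miRNAs of both B16 libraries, had the most lopsided hairpins of the 6. let-7g-3p had 54 reads in B16 cells beside 435285 of its guide, a share of 0.0124% (0.00932 to 0.0162). It was listed at 0 in both exosome libraries, which allows up to 0.617% in B16 exosomes and 0.307% in JB6 exosomes. let-7i-3p had 185 reads beside 1244154 in B16 cells, a share of 0.0149% (0.0128 to 0.0172), a listed 0 beside 8014 in B16 exosomes, which allows up to 0.112%, and 14 beside 40626 in JB6 exosomes, a share of 0.0344% (0.0188 to 0.0578). At the cell ratios the guide reads of B16 exosomes would have come with 5.28 reads of let-7b-3p, 0.180 of let-7g-3p and 1.19 of let-7i-3p. All 3 lie below the smallest listed count, so a decrease of these arms in B16 exosomes was not detectable at this depth.

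**Figure D2:**
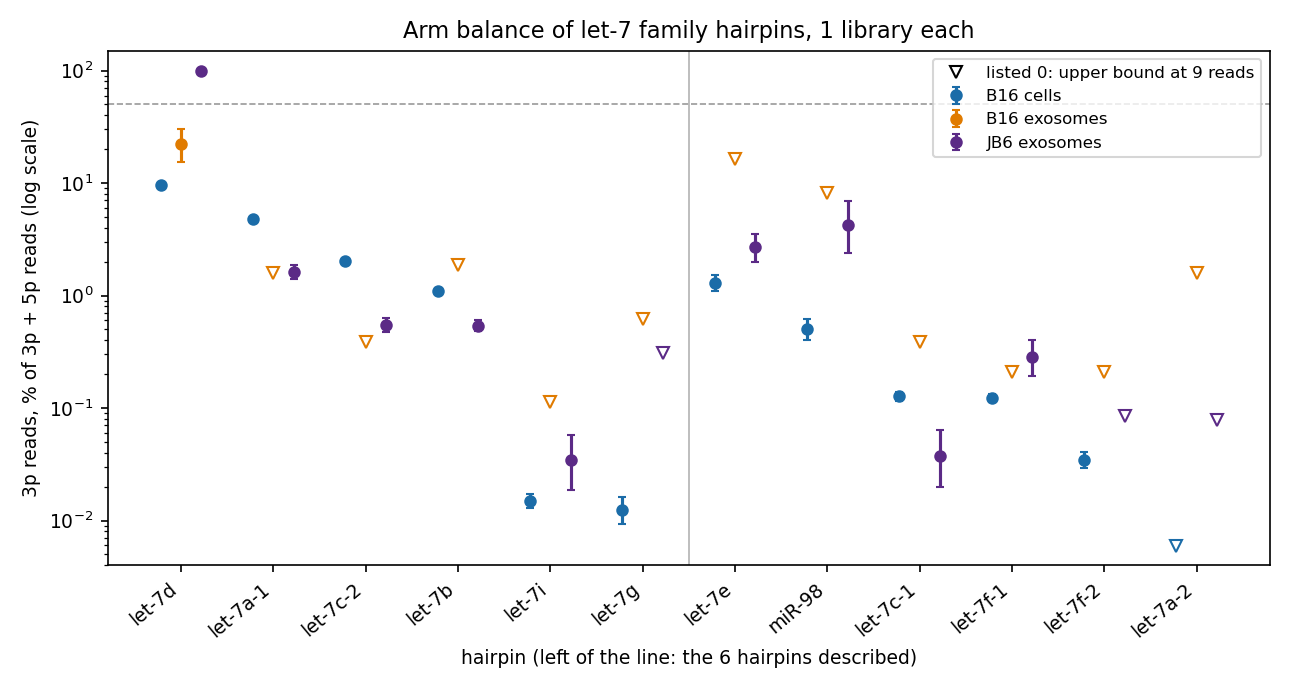
Share of 3p reads among the 3p and 5p reads of each let-7 family hairpin, in percent on a log axis, for B16 cells, B16 exosomes and JB6 exosomes (1 library each). Circles carry exact 95% counting intervals, open triangles mark the upper bound where the 3p arm is listed at 0, and the dashed line is 50%, above which 1 point lies, let-7d in JB6 exosomes at 98.2%.

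Against B16 cells, the arm balance of the let-7 hairpins in JB6 exosomes moved in both directions. Of the 6 hairpins, let-7d and let-7i had a higher 3p-to-5p odds ratio, let-7i at 2.32-fold on 14 reads (1.35 to 3.99). let-7b was 2.05-fold lower (1.80 to 2.32), let-7a-1 3.02-fold lower (2.61 to 3.49) and let-7c-2 3.71-fold lower (3.22 to 4.29). let-7g could not be evaluated because its 3p arm was listed at 0. Of all 74 hairpins with both arms listed in both libraries, 56.8% were at least 2-fold higher and 31.1% at least 2-fold lower with an interval that excludes 1, together 87.8%. A 2-fold change of arm balance in either direction was thus the rule in this comparison, and the 5 of 5 let-7 hairpins past it are read against that background. By direction they were 2 higher and 3 lower, and of the lower ones let-7a-1 and let-7c-2 rest on the same passenger reads.

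The remaining let-7 family passengers were also minor partners of their guides. let-7e-3p had 149 reads in B16 cells and 47 in JB6 exosomes, a 3p share of 1.31% and 2.69%. miR-98-3p, of a hairpin with a let-7 seed in its guide, had 92 and 15 reads, and shares of 0.500% and 4.27%. let-7f-1-3p had 580 and 30 reads (0.123% and 0.284%), and let-7c-1-3p 473 and 13 (0.128% and 0.0376%). The guide reads beside them are shared, let-7f-5p with let-7f-2 and let-7c-5p with let-7c-2. let-7f-2-3p had 163 reads in B16 cells and a listed 0 in JB6 exosomes, and let-7a-2-3p was listed at 0 in each library. All 6 were listed at 0 in B16 exosomes. Over the 8 let-7 family hairpins other than let-7d that could be evaluated, 4 had higher and 4 lower 3p-to-5p odds in JB6 exosomes. They ran from 3.71-fold lower (let-7c-2) to 8.88-fold higher (miR-98). The lower ones include let-7a-1 and let-7c-2, which rest on the same passenger reads, so the even split counts that sequence for both hairpins.

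Passengers were summed over the family, with the shared let-7a-1 and let-7c-2 sequence counted once and listed 0s taken as 0 reads. They made up 0.524% of let-7 reads in B16 cells (0.516 to 0.533) and 25.8% in JB6 exosomes (25.6 to 26.0). In B16 exosomes they made up at least 0.161%, with an interval (0.107 to 0.233) that leaves out reads hidden by listed 0s. Every passenger except let-7d-3p was listed at 0 there, so a share below that of the cells was not resolved. Without the let-7d hairpin the share was 0.368% in B16 cells (0.361 to 0.375) and 0.389% in JB6 exosomes (0.359 to 0.420). let-7d-3p alone was 31.0% of all let-7 passenger reads in B16 cells and 98.9% in JB6 exosomes, and in B16 exosomes its 28 reads were the only ones listed. let-7d-5p was 1.55% of let-7 guide reads in B16 cells, 0.564% in their exosomes and 0.639% in JB6 exosomes.

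The let-7d exchange was then set beside all hairpins with both arms in the files, 810 in number. Between JB6 exosomes and B16 cells the dominant arm differed in 20 of the 177 hairpins with 30 or more reads in both libraries, 11.3%, of which 10 went to 3p and 10 to 5p. let-7d was the only let-7 hairpin among them. Ordered by the lower limit of the odds ratio, among the 14 of these hairpins with both arms listed in both libraries, miR-125b-1 came before let-7d, at 1269-fold toward 3p (682 to 2360), on 10 reads of its 3p arm in B16 cells. Its 5p reads, of miR-125b-5p, are shared with miR-125b-2, so this is not the balance of the miR-125b-1 hairpin alone. On the same 5p reads miR-125b-2 was 16.7-fold toward 5p (14.1 to 19.7). After let-7d came miR-23b at 351-fold toward 5p (214 to 575), miR-423 at 220-fold toward 5p (211 to 229), miR-365-2 at 164-fold toward 5p (105 to 255) and miR-351 at 134-fold toward 3p (90.7 to 197). Arm counts can be shared with close copies in the genome. By sequence let-7d-3p and miR-125b-1-3p are each 4 edits from the nearest other mature entry, and let-7d-5p is 2 edits from the more abundant let-7a-5p.

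**Figure D3:**
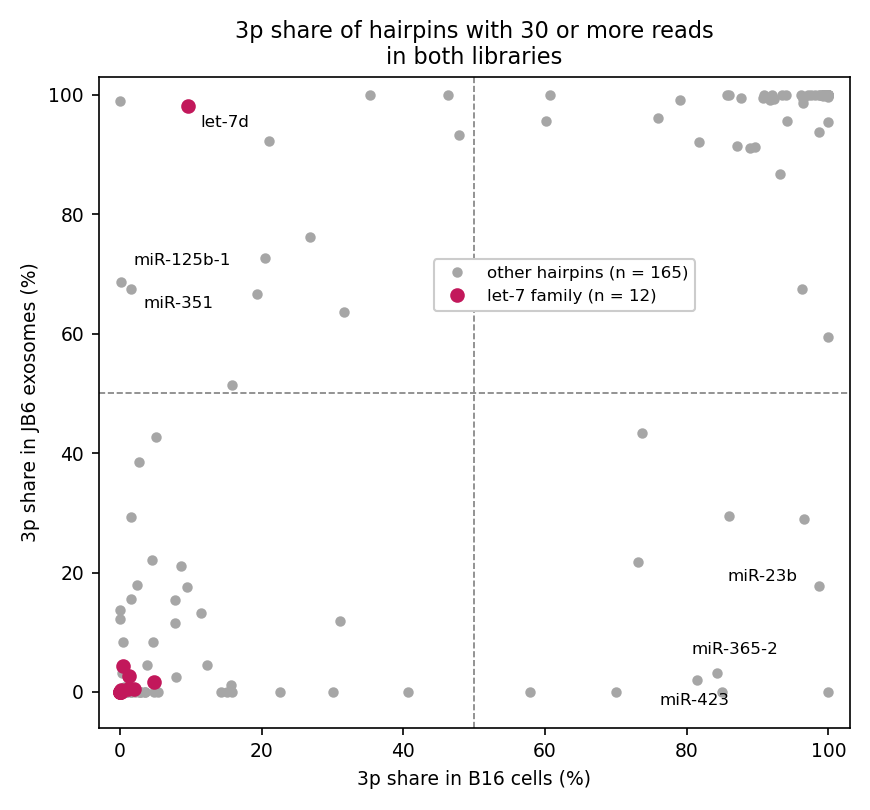
3p share of each hairpin in B16 cells (x axis, percent) against JB6 exosomes (y axis, percent), for the 177 hairpins with 30 or more reads in both libraries, with a listed 0 drawn as 0 reads. let-7d, at 9.56% and 98.2%, lies in the upper left, and the other let-7 family hairpins lie in the lower left corner.

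In B16 exosomes against B16 cells the dominant arm differed in 1 of 104 hairpins (0.962%), which was miR-30e, with a 3p share of 31.6% in the cells and 59.9% in the exosomes (51.6 to 67.7). let-7d kept its 5p arm dominant there. Its 3p-to-5p odds ratio of 2.70 was 1 of 5 called among the 13 hairpins with both arms listed in both libraries (38.5%), with 23.1% higher and 15.4% lower. Between B16 and JB6 exosomes the dominant arm differed in 5 of 98 hairpins (5.1%), which were let-7d, miR-145a, miR-23b, miR-342 and miR-423. In that pair 11 hairpins had both arms listed in both libraries, with 36.4% higher and 45.5% lower in B16 exosomes (81.8% together), let-7d among the lower.

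The 5 hairpins taken for comparison did not move as a group. miR-423 had a 3p share of 81.5% in B16 cells, 73.6% in their exosomes and 1.96% in JB6 exosomes, the opposite direction to let-7d. miR-342 went from 96.6% in B16 cells to 28.9% in JB6 exosomes, and miR-574 from 96.2% to 67.5%. miR-30a went from 8.63% to 21.0% and kept its 5p arm dominant, while miR-30e, at 63.6% in JB6 exosomes, did not.

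**Figure D4:**
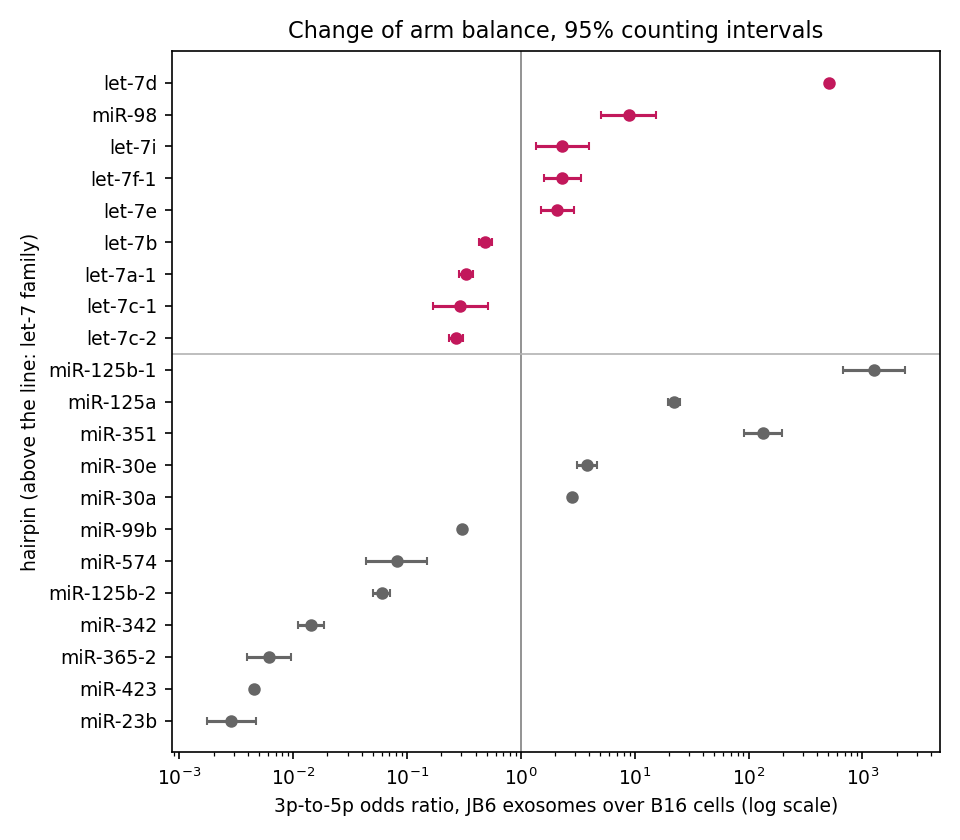
Odds ratio of 3p to 5p reads in JB6 exosomes over B16 cells, on a log axis, with 95% counting intervals, for let-7 family hairpins (above the line) and other hairpins named in the text, without miR-145a (below it). let-7d lies at 509, the other let-7 hairpins between 0.269 and 8.88, and the other hairpins on both sides of 1.

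Base composition of the arms was set beside the arm balance. let-7d-3p holds 11 G or C of its 22 bases (50%) and let-7d-5p holds 9 (40.9%). Of 61 hairpins with both sequences matched, out of 74, 13 had a larger excess of G and C in the 3p arm than let-7d and 1 had a larger odds ratio in JB6 exosomes over B16 cells. let-7f-1, with the same excess of 9.09 percentage points, had an odds ratio of 2.32, and let-7i, with 18.2 points, also 2.32. Across the 61 hairpins, which share their libraries and depth and are not independent replicates, Spearman's coefficient between the excess and the log2 odds ratio was 0.22 and Pearson's 0.29. The same coefficients were 0.40 and 0.55 over 12 hairpins in B16 exosomes against B16 cells, and -0.12 and -0.11 over 10 in B16 against JB6 exosomes. Of the 20 hairpins whose dominant arm differed between JB6 exosomes and B16 cells, the arm dominant in JB6 exosomes had more G and C in 12, fewer in 5 and as many in 1, and 2 were not matched to sequences. Among the 61 hairpins of that comparison, 28 of 39 with a richer 3p arm had an odds ratio above 1. With a richer 5p arm, 7 of 17 had one below 1.

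In levels rather than arm balance, JB6 exosomes against B16 cells had 26.1% of 501 miRNAs higher, 60.7% lower and 2.2% not resolved by the 2-fold rule. Of the 6 let-7 passengers 1 was higher, let-7d-3p, and 4 were lower. The sequence shared by let-7c-2-3p and let-7a-1-3p was 22.6-fold lower (19.6 to 26.2), let-7i-3p was 7.50-fold lower (4.36 to 14.0), and let-7g-3p, with a listed 0, was at least 3.40-fold lower at 9 reads. let-7b-3p had a ratio of 0.545 (0.479 to 0.619), which became 1.39 under TMM and 3.26 under DESeq2 size factors, so its direction changed with the scaling. Under TMM and DESeq2 factors let-7g-3p was no longer resolved, and under DESeq2 factors let-7i-3p, at 0.797, was neither. The shared let-7a-1 and let-7c-2 sequence stayed lower under each scaling tried, by 3.78-fold with DESeq2 factors, the smallest of these values. Of the 9 guides 8 were lower, from 3.75-fold (let-7e-5p) to 84.5-fold (let-7g-5p), and let-7b-5p, at 1.12, was neither. These guide counts depended on the scaling. Under TMM factors 7 were lower, let-7e-5p was neither at 0.678 and let-7b-5p was higher at 2.84, beside 202 lower and 165 higher of all 501 miRNAs. Under DESeq2 factors 5 were lower, let-7a-5p (0.799), let-7c-5p (0.983) and let-7e-5p (1.59) were neither, and let-7b-5p was higher at 6.67. Of all 501 miRNAs 134 were lower and 204 higher with these factors. let-7d-3p was higher under each scaling tried, from 18.6-fold under the authors' totals to 126-fold under DESeq2 factors, and let-7d-5p was lower under each, from 4.03-fold to 27.4-fold.

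Between the exosome libraries, B16 against JB6, 31.3% of 300 miRNAs were higher, 11.7% lower and 48.7% not resolved. Of the 4 let-7 passengers with enough reads let-7d-3p was lower and the other 3, all listed at 0 in B16 exosomes, were not resolved. Under DESeq2 factors let-7b-3p was lower too (at most 0.429), and under the authors' totals all 4 were lower, with bounds of 0.188 for let-7b-3p and 0.313 for the shared let-7a-1 and let-7c-2 sequence. let-7d-5p was 9.34-fold higher in B16 exosomes (7.51 to 11.5), a ratio that was 1.81 under TMM, 1.43 under DESeq2 factors and 0.630 under the authors' totals. The 3 comparisons share libraries pairwise, so their values are not independent of each other.

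The miRNAs whose level followed let-7d-3p most closely were sought among the 131 others listed above 0 in all 3 libraries, by the distance between the pairs of log2 ratios to B16 cells. Its log2 ratio was 0.07 in B16 exosomes and 4.40 in the JB6 library. The nearest was miR-320-3p, which is made without Drosha, with log2 ratios of 0.02 and 4.28 and a distance of 0.13 on the log2 scale, on 3924, 23 and 43269 reads. miR-146b-5p (distance 1.19), miR-423-5p (1.21), miR-1964-3p (1.95) and miR-222-3p (2.01) followed. With 3 libraries this likeness rests on 2 ratios per miRNA and is a description only.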

How the data were processed

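Per the labels' protocols, exosomes were collected by ultracentrifugation, RNA was taken up in Trizol and libraries followed the manufacturer's standard procedure. Tools named in the submitters' processing notes are bcl2fastq and BWA, with build mm10. How reads matching several miRNAs or either strand were handled is not stated in the sources used.

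The deposited files give a read count per mature miRNA, not normalized, per the file headers, and an RPM value that the authors computed from the count with 1 constant per library. The total behind that RPM (8721363 in B16 cells, 847694 in B16 exosomes, 5626936 in JB6 exosomes) exceeds the listed miRNA reads. Depth was 7925726, 45677 and 4495956 miRNA reads. Without molecular identifiers, reads are not independent molecules, so intervals cover counting error only.

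Arms were paired by name, giving 810 hairpins. Shares carry exact Clopper-Pearson intervals, odds ratios Woolf intervals and ratios of shares exact conditional binomial intervals (scipy 1.17.1). A listed 0 was set to 9 reads as a bound. Odds ratios were tested on simulated counts at B16 cell depth, and ratios of shares on simulated Poisson counts. The simulations left out the depth of B16 exosomes, listed 0s, the dominant-arm rule and spread beyond counting error. Scaling alternatives used edgeR 4.0.16 and DESeq2 1.42.0. Members and lists were chosen with earlier results of these data known. Named were all members, their guides, the other let-7 3p arms, up to 5 other hairpins with a changed dominant arm by the limit nearest to 1, the 5 miRNAs nearest to let-7d-3p, and 5 comparison hairpins taken by name. miR-30e, miR-145a and miR-342 in the exosome comparisons were named as the full list of changed hairpins, after their values were seen.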

Additional observations from a re-analysis of the deposited data

How the results depend on the processing

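The let-7d arm shares and odds ratios do not depend on how libraries are scaled, and the exact conditional estimates of the 3 odds ratios stayed within their intervals. Replacing the hairpin by the summed let-7 family gave 3p shares of 0.524% in B16 cells and 25.8% in JB6 exosomes. In B16 exosomes it gave at least 0.161%, with listed 0s summed as 0 reads. The ratio of let-7d-3p levels moved with the scaling. In B16 exosomes against B16 cells it was 0.517 with TMM and 0.0621 with the authors' totals. In JB6 exosomes against B16 cells it was 53.8 with TMM, 126 with DESeq2, 18.6 with the authors' totals and 33.5 without the 10 most abundant miRNAs. In B16 against JB6 exosomes it was 0.00961, 0.00761, 0.00334 and 0.0326 in the same order. Against the main scaling, each log2 ratio of JB6 exosomes to B16 cells moved by 1.35 with TMM, 2.58 with DESeq2, -0.19 with the authors' totals and 0.67 without the most abundant miRNAs. For B16 exosomes against B16 cells the shifts were -1.02, -0.13, -4.08 and 0.06, and for B16 against JB6 exosomes -2.37, -2.70, -3.89 and -0.61. The upper bound for let-7g-3p in JB6 exosomes against B16 cells passed 1 with DESeq2 (1.76). Over all miRNAs the calls in JB6 exosomes against B16 cells were 131 higher and 304 lower, against 165 and 202 with TMM and 204 and 134 with DESeq2. In B16 exosomes against B16 cells they were 36 and 33, against 16 and 93 with TMM and 9 and 257 with the authors' totals, and in B16 against JB6 exosomes 94 and 35, against 61 and 97, 57 and 109 with DESeq2, and 40 and 153. With 30 or more reads required of each arm, the hairpins called by odds ratio numbered 1 of 3 in B16 exosomes against B16 cells, 38 of 43 in JB6 exosomes against B16 cells (88.4%) and 1 of 3 between the exosome libraries, where fewer hairpins could be evaluated, and let-7d, with 28 reads in B16 exosomes, dropped out of both small sets. The hairpins whose dominant arm differed numbered 13 in JB6 exosomes against B16 cells with a minimum of 100 reads, and 3 with that minimum and 9 with no minimum between the exosome libraries. The count was 0 in B16 exosomes against B16 cells when the dominant arm had to be 2-fold above the other. let-7d stayed among the changed hairpins of both comparisons with JB6 exosomes in each of these settings. If the let-7a-5p reads are shared equally between its hairpins, the let-7a-1 share in B16 cells becomes 9.12%, and if the passenger count is divided equally, 2.45%. No paired analysis was possible because each group holds 1 library, and for the same reason none could be left out. The depth of the B16 exosome library limits every passenger there. let-7d-3p rests on 28 reads, and the shared let-7a-1 and let-7c-2 sequence, listed at 0, has only a bound. In the main scaling that bound gave a lower level than in B16 cells but left the comparison with JB6 exosomes not resolved.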

Other observations

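Hairpins that lie with let-7 hairpins in the genome were read by arm as well. miR-125a, from a cluster with let-7e and miR-99b, had a 3p share of 2.74% in B16 cells (2.42 to 3.09) and 38.5% in JB6 exosomes (37.8 to 39.1), on 255 and 8731 reads of the 3p arm. miR-99b, of the same cluster, had 7.96% in B16 cells, 12.9% in their exosomes and 2.57% in JB6 exosomes. miR-99a-3p had 16 reads in B16 cells beside 163893 of its guide and was listed at 0 in both exosome libraries, and miR-100-3p was listed at 0 in all 3. Arms of 1 cluster thus moved in opposite directions.

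The 3p arms of both miR-125b hairpins, which share the guide miR-125b-5p, stood in opposite order in B16 cells and JB6 exosomes. B16 cells held 10 reads of miR-125b-1-3p and 1070 of miR-125b-2-3p, and JB6 exosomes held 31850 and 161. The guide had 5776 and 14498 reads. In B16 exosomes both 3p arms were listed at 0 beside 18 guide reads. These passengers come from different genomic copies. miR-125b-1-3p is printed with its seed in capitals:
miR-125b-1-3p: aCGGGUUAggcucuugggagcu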
